A study of Mus musculus with 15 samples.

Results

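The comparison described here is a difference of differences: the Twitcher (Twi) minus wild-type (WT) difference at postnatal day 20 (P20) minus the same difference at P10, for every gene. It rests on 11 of the series' 15 libraries, chosen by their genotype and age labels: 3 each of Twi P20, WT P20 and Twi P10, and 2 of WT P10. The remaining 4 libraries, Twi and WT at P15 (2 each), entered the same fit, and their values are given as the age between. Twitcher mice carry a mutation of Galc, and the WT mice are the controls of the same ages. Every library was made from bulk RNA of live cells sorted for the surface proteins CD45 and CD11b from brainstem with cerebellum, and the labels name no treatment. A value above 0 means that the Twi minus WT difference was higher at P20 than at P10, and it can come from a change with age in Twi, in WT or in both.

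Galc encodes galactosylceramidase, the lysosomal enzyme that breaks down galactosylceramide and the toxic lipid psychosine, and its loss causes Krabbe disease, in which myelin breaks down and phagocytes fill with undigested lipid. Microglia are the resident macrophages of the brain. They divide in the first postnatal weeks and then largely leave the cell cycle as they take on their adult expression program, and in disease they can divide again, present antigen, answer interferon and turn on genes of lysosomes and lipid handling.

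Microglia genes were abundant in every library of the 4 groups: P2ry12, a receptor for nucleotides, lay between 5133 and 15383 CPM (counts scaled to the size of the library), and Tmem119, a membrane protein of microglia, between 2210 and 5675 CPM. The sort does not exclude other myeloid cells. Between 15708 and 16870 genes were detected per library. Pearson's r within groups, a description across genes, lay between 0.935 and 0.961. The 4 Y-linked genes were high in 5 of the 15 libraries, and these were WT P10 replicate 1, Twi P10 replicate 2, WT P20 replicates 1 and 3 and Twi P20 replicate 2. Sequencing batch 1 held 1 WT P10, 1 Twi P10 and 1 WT P20 library but no Twi P20 library, so the comparison cannot be made within batch 1, and within batch 2 WT P10 has 1 library. No label states whether the libraries of a group came from different animals, and the p-values speak only of variation among these libraries.

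Galc checked the labels first. It measured 55.9 and 68.5 CPM in the WT P10 libraries and 3.98, 4.27 and 5.25 CPM in the Twi P10 libraries. At P20 it measured 35.2, 36.8 and 36.7 CPM in WT and 5.65, 9.0 and 5.97 CPM in Twi. Every Twi library lay below every WT library at both ages. The Galc difference was nearer to 0 at P20 (log2 difference -2.42) than at P10 (-3.77), and the change of 1.35 ± 0.36 (SE) did not pass (limma adjusted p = 0.227).

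Across all genes the test made 1 call. Of 13292 genes, 1 was higher at a limma adjusted p under 0.05 (0.00752%), the chemokine Ccl7, and 0 were lower. At an unadjusted p under 0.05 there were 1223 genes (9.2% of those tested), of which 705 (5.3%) had a higher and 518 (3.9%) a lower difference at P20. The median difference over all genes was 0.01 log2 units, with 6726 genes (50.6%) above 0. The gene groups below are therefore described by the direction and number of their members against these shares, and single members other than Ccl7 are given as values that did not pass for the difference itself. Among the 1223 genes, the larger of each gene's 2 Twi minus WT differences was the one at P20 in most: 568 (46.4%) were higher in Twi and farther from 0 at P20, and 370 (30.3%) were lower in Twi and farther from 0 at P20. Another 148 (12.1%) were higher in Twi with the larger difference at P10, and 137 (11.2%) were lower in Twi with the larger difference at P10.

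**Figure D1:**
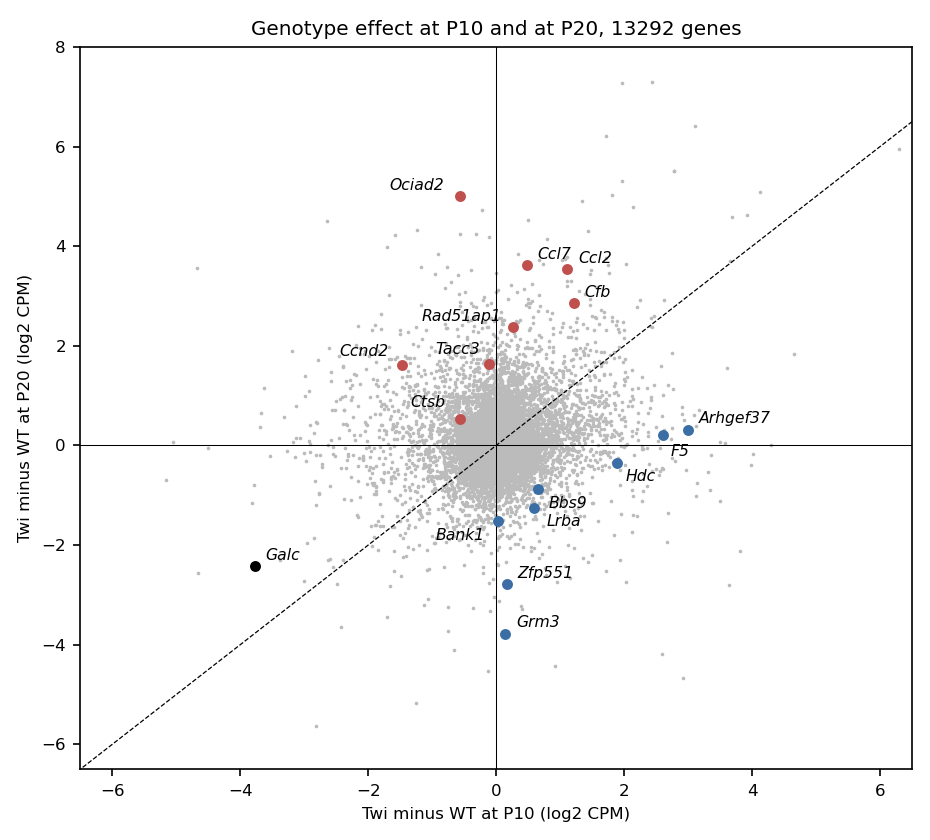
Twi minus WT at P10 (x axis) against Twi minus WT at P20 (y axis), both in log2 CPM, for the 13292 genes tested. Genes above the dashed line of equality have a higher difference at P20. Red points are the 8 genes with the smallest p in that direction and blue points the 8 in the other, predicted and unnamed genes left out. Black is Galc, and only Ccl7 passed the test.

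The 2 ages were also compared within each genotype, which gives the 2 parts of each difference of differences. In WT, 1375 genes changed between P10 and P20 (10.3%; 625 or 4.7% rose and 750 or 5.64% fell), and in Twi 318 changed (2.39%; 204 or 1.53% rose and 114 or 0.858% fell). Of the 705 genes with a higher difference, the WT value of P20 minus P10 was below 0 in 652 and larger in size than the Twi value in 517. Of the 518 with a lower difference, the WT value was above 0 in 490 and larger in size in 375. Over all 13292 genes the WT value was below 0 in 6521 and above 0 in 6770. The difference is the Twi value minus the WT value, so genes chosen by it lean to WT values of the opposite sign by construction. These counts use the same WT libraries as the difference itself and only describe its make-up. They depend on the libraries: the WT counts were 110 higher and 88 lower in batch 2 alone, where WT P10 has 1 library, 118 and 191 without WT P10 replicate 1, and 236 and 210 without the WT P10 library that has no number. Without WT P20 replicate 1 they were 305 and 429, and 377 genes rose without WT P20 replicate 3. The 204 rises in Twi were 70 to 96 without Twi P10 replicate 1 or 3 or Twi P20 replicate 2 or 3, and the 114 falls were 25 to 37 without the first 3 of these.

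Ccl7, a chemokine that draws in monocytes, was similar in both genotypes at P10 and apart at P20. It measured 22.2 and 25.2 CPM in WT and 31.2, 42.9 and 24.5 CPM in Twi at P10. At P20 the WT libraries held 4.77, 4.06 and 3.05 CPM and the Twi libraries 38.7, 43.8 and 58.4 CPM. The genotypes overlapped at P10, and every Twi library was above every WT library at P20. The difference of differences was 3.15 ± 0.42 log2 units (SE; limma adjusted p = 0.0435), made of 0.48 at P10 and 3.62 at P20, with 2.14 at P15. WT fell by 2.53 ± 0.31 (limma adjusted p = 0.000525), while the Twi value was 0.61 ± 0.29 (adjusted p = 0.310). In batch 2 alone the difference was 3.37 with adjusted p = 0.232, and without the unnumbered WT P10 library 3.19 with adjusted p = 0.213. Here and below, fewer cells of a type and less RNA per cell cannot be told apart in bulk libraries.

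Ccl2, the neighbouring monocyte chemokine, came from a rise in Twi. It measured 28.0 and 30.4 CPM in WT P10, 51.7, 97.4 and 42.4 CPM in Twi P10, 30.2, 20.7 and 35.5 CPM in WT P20 and 251, 278 and 368 CPM in Twi P20. Twi lay above WT at both ages without overlap, and by more at P20. Ccl2 rose in Twi by 2.46 ± 0.28 log2 units (limma adjusted p = 0.000927), the WT value was 0.03 ± 0.31, and the difference of 2.43 ± 0.41 had adjusted p = 0.0797. Cfb, factor B of the alternative complement pathway, had the same form: 19.3 and 36.6 CPM in WT P10, 46.5, 86.3 and 48.8 CPM in Twi P10, 21.5, 16.0 and 19.9 CPM in WT P20 and 105, 126 and 133 CPM in Twi P20. Its groups did not overlap at either age. Cfb rose in Twi by 1.25 ± 0.19 (limma adjusted p = 0.00469), and its difference of 1.64 ± 0.27 had adjusted p = 0.0797.

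**Figure D2:**
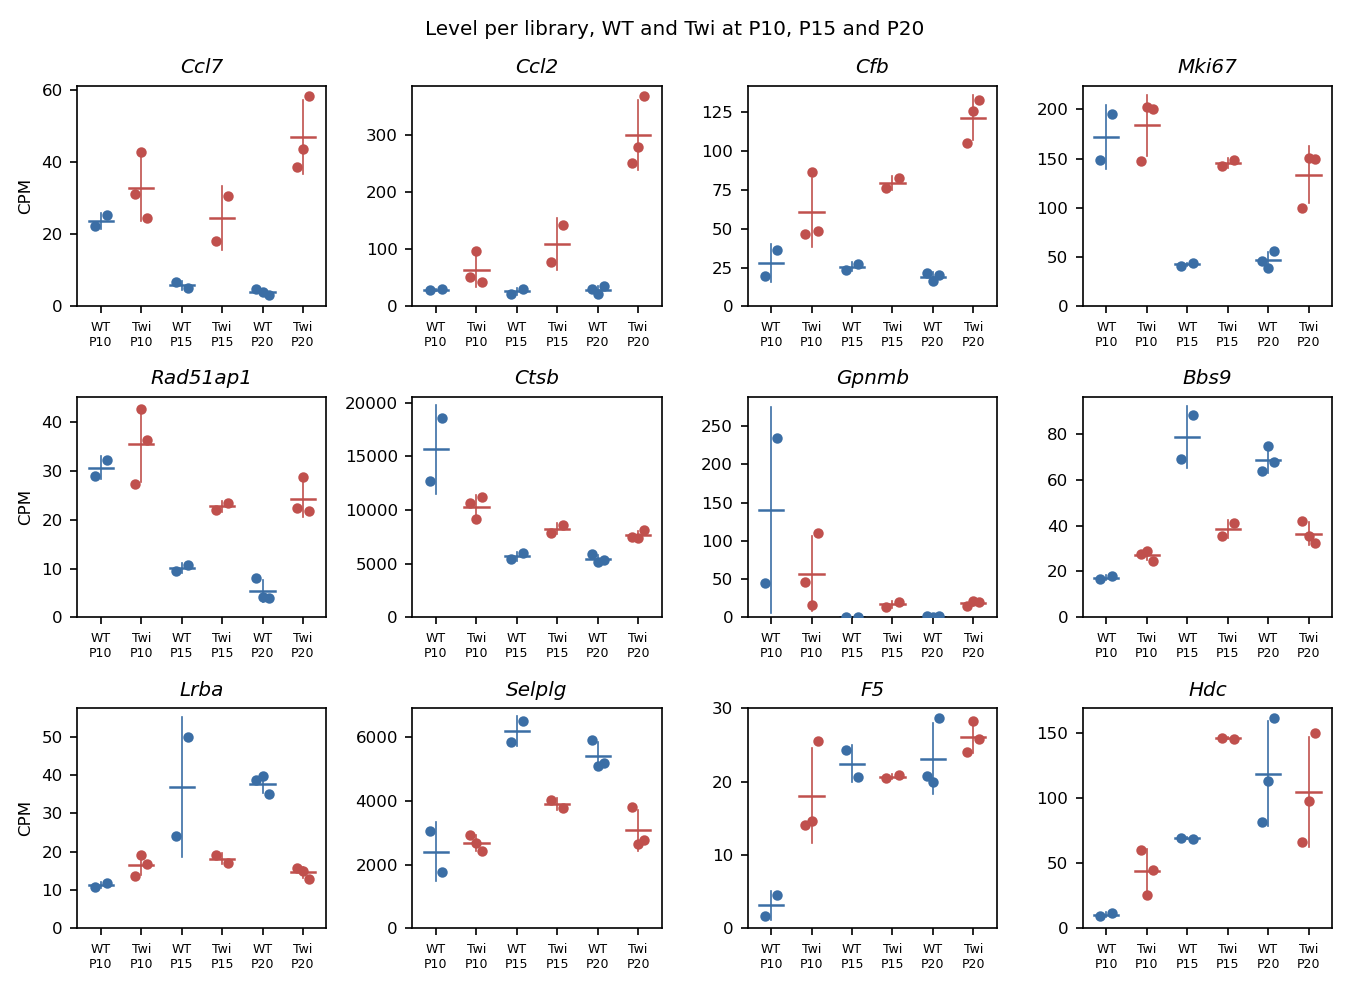
Level in CPM (y axis, starting at 0) of 12 genes in each of the 15 libraries, by genotype and age; blue points are WT libraries and red points Twi libraries, and bars are the group mean ± SD. Ccl7 and Rad51ap1 fell in WT between P10 and P20, Ccl2 rose in Twi, and Bbs9 and Lrba rose in WT.

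Cell division genes were nearly all on the higher side. Of 53 mitosis genes tested, 52 had a difference above 0, with a median of 1.29 log2 units, and 32 were higher and 0 lower at an unadjusted p under 0.05, against 5.3% and 3.9% of all genes. None of the 53 passed the adjusted threshold for the difference. The Twi minus WT median was 0.06 at P10, 1.13 at P15 and 1.36 at P20. In WT, 48 of the 53 fell between P10 and P20 and 0 rose (median -1.93, against 5.64% of all genes falling), and in Twi 0 of 53 passed in either direction (median -0.64, against 0.858% falling). Of 44 genes of replication licensing and DNA synthesis, 39 had a difference above 0 (median 0.76), 22 were higher and 0 lower at an unadjusted p under 0.05, and 27 fell in WT and 1 in Twi.

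The promoters of this group are shown because nearly all of its members lay on the same side and cell cycle genes are known for shared promoter elements. The CCAAT box is bound by the factor NF-Y, and the cell cycle genes homology region (CHR, searched as TTTGAA) is bound by complexes that repress genes in resting cells and activate them before mitosis. RefSeq promoters (build GRCm38.p6) were matched by symbol for 43 of the 53 mitosis genes, as 47 promoters. In the 250 bases before the start site, on either strand, CCAAT was present in 36 of the 47 (76.6%), against 33.8% of all 32851 promoters and 35.6% of those of genes tested. TTTGAA was present in 18 (38.3%), against 16% and 11.2%. The E2F letters TTTCCCGC, known from promoters of S phase genes, were in 0 of the 47 mitosis promoters and in 5 of 42 replication promoters (11.9%), against 0.895% of all and 1.59% of those of genes tested. A second E2F form, TTTGGCGC, was in 1 of the 47 (2.13%) and in 3 of the 42 (7.14%), against 0.417% and 0.71%. CCAAT was in 24 of the 42 replication promoters (57.1%). A match is a run of letters, not a bound site. The last 120 bases before the start site follow, 5′ to 3′ on the gene's strand. Capitals mark TTTGAA in Mki67 and CCAAT or its reverse complement ATTGG in Ccnb1 and Rad51ap1.
Mki67, chr7:135716380-135716499, minus strand: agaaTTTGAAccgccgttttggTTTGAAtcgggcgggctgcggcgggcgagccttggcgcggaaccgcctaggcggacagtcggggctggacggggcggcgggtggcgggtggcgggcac
Ccnb1, chr13:100786487-100786606, minus strand: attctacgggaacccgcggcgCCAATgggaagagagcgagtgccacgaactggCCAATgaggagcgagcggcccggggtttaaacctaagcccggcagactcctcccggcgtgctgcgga
Rad51ap1, chr6:126939588-126939707, minus strand: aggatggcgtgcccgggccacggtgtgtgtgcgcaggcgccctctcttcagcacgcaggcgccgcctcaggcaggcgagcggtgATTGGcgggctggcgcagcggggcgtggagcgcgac

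Mki67, which coats mitotic chromosomes and marks dividing cells, measured 149 and 195 CPM in WT P10 and 148, 203 and 201 CPM in Twi P10. At P20 it measured 46.1, 39.2 and 55.8 CPM in WT and 100, 151 and 150 CPM in Twi. The genotypes overlapped at P10 and lay apart at P20. Mki67 fell in WT by 1.84 ± 0.21 log2 units (limma adjusted p = 0.000339), the Twi value was -0.42 ± 0.19, and the difference was 1.43 ± 0.28 (adjusted p = 0.149). Ccnb1, the cyclin that drives entry into mitosis, measured 143 and 149 CPM in WT P10, 116, 145 and 160 CPM in Twi P10, 21.0, 15.6 and 34.1 CPM in WT P20 and 50.1, 81.2 and 97.6 CPM in Twi P20. Here Twi was also lower at P20 than at P10, with a value of -0.91 ± 0.30 that did not pass, against a fall of 2.69 ± 0.32 in WT (limma adjusted p = 0.000505). The difference for Ccnb1 was 1.79 ± 0.43 (adjusted p = 0.186). The kinetochore genes Ndc80 (1.29 ± 0.29) and Kif2c, a kinesin that dismantles microtubules (1.66 ± 0.34), had differences of like size, with limma adjusted p of 0.160 and 0.159.

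Among all genes, several with the smallest p for a higher difference also belong to cell division. Rad51ap1, a protein of DNA repair by recombination, measured 29.0 and 32.3 CPM in WT P10, 27.4, 42.6 and 36.4 CPM in Twi P10, 7.97, 4.18 and 3.96 CPM in WT P20 and 22.4, 28.7 and 21.8 CPM in Twi P20. The genotypes overlapped at P10 and not at P20, and the difference was 2.11 ± 0.34 (limma adjusted p = 0.0634). Tacc3, which stabilises spindle microtubules, measured 134 and 140 CPM in WT P10, 122, 117 and 149 CPM in Twi P10, 29.3, 26.7 and 43.3 CPM in WT P20 and 83.6, 111 and 119 CPM in Twi P20. Again the libraries separated by genotype at P20 and not at P10, with a difference of 1.74 ± 0.28 (limma adjusted p = 0.0634). Ociad2, a small membrane protein, had the second smallest p: it measured 4.57 and 5.32 CPM in WT P10, 2.62, 3.64 and 3.68 CPM in Twi P10, 0, 0 and 0.0156 CPM in WT P20 and 3.84, 2.35 and 2.87 CPM in Twi P20. At P20 it was at or near 0 in WT and not in Twi, at P15 it was at or near 0 in both genotypes, and the fitted difference of 5.57 ± 0.80 (limma adjusted p = 0.0512) rests on values close to the lowest of the table. Ccnd2, the D-type cyclin of early G1, had a difference of 3.09 ± 0.54 (adjusted p = 0.0830), but its WT P10 libraries stood at 56.5 and 21.8 CPM and the Twi P10 libraries at 10.2 to 21.5 CPM, so the sign of Twi minus WT turned from -1.47 to 1.62. In replication, the flap nuclease Fen1 (1.05 ± 0.19, limma adjusted p = 0.0830), the helicase subunit Mcm2 (1.65 ± 0.39, 0.185) and the chromatin assembly subunit Chaf1b (1.99 ± 0.53, 0.227) each had a WT fall that passed, by 1.54, 2.21 and 1.72. Fen1 held 194 and 198 CPM in WT P10 and 65.6 to 71.1 CPM in WT P20, against 166 to 182 and 124 to 129 CPM in Twi.

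In this list 51 or 52 of the 53 differences were above 0 in batch 2 alone and with any 1 library left out, but the counts moved. In batch 2 alone 52 of the 53 mitosis differences were above 0 (median 1.13), with 15 in place of 32 at an unadjusted p under 0.05 and 6 in place of 48 WT falls. Without the unnumbered WT P10 library these counts were 17 and 19, and without WT P10 replicate 1 they were 28 and 20. Without WT P20 replicate 1, 31 genes fell in WT. The 22 replication genes were 8 in batch 2 alone and 10 without the unnumbered library, and their 27 WT falls were 4 and 9, or 14 without WT P10 replicate 1.

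**Figure D3:**
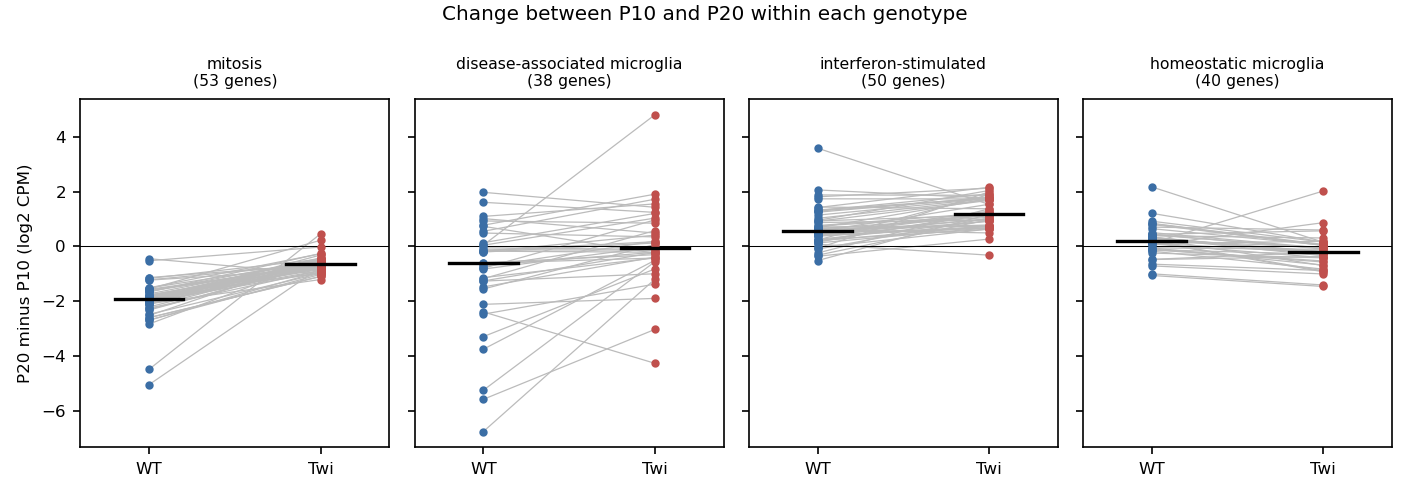
Change between P10 and P20 (y axis, log2 CPM) within WT (blue) and within Twi (red) for each gene of 4 lists; grey lines join the 2 values of a gene and black bars are medians. Mitosis medians are -1.93 in WT and -0.64 in Twi, those of interferon-stimulated genes 0.57 and 1.18.

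Genes known to rise in disease-associated microglia, together with those of lysosomes and lipid handling, also leaned to a higher difference at P20. Of 38 disease-associated genes tested, 28 had a difference above 0 (median 0.66), and 15 were higher and 0 lower at an unadjusted p under 0.05. In WT 12 fell and 2 rose with age, against 5.64% and 4.7% of all genes, so the WT rises were near that share. In Twi 5 rose and 0 fell, against 1.53% and 0.858%. The Twi minus WT median moved from -0.17 at P10 to 0.24 at P15 and 0.54 at P20. The 15 genes were 8 in batch 2 alone and 7 without the unnumbered WT P10 library, and the 12 WT falls were 4 and 3. Without the unnumbered library the median difference was 0.20, and without WT P10 replicate 1 it was 1.15.

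Ctsb, the lysosomal protease cathepsin B, measured 12726 and 18573 CPM in WT P10, 10645, 9114 and 11174 CPM in Twi P10, 5861, 5169 and 5342 CPM in WT P20 and 7457, 7351 and 8099 CPM in Twi P20. Both orders were free of overlap, with WT above Twi at P10 and Twi above WT at P20. Ctsb fell in WT by 1.48 ± 0.14 (limma adjusted p = 0.00018), and its difference was 1.09 ± 0.19 (adjusted p = 0.0830). Gpnmb, a glycoprotein of phagocytes loaded with lipid, measured 44.9 and 235 CPM in WT P10, 45.8, 15.5 and 111 CPM in Twi P10, 1.17, 0.381 and 1.30 CPM in WT P20 and 14.8, 21.4 and 19.5 CPM in Twi P20. Its genotypes overlapped at P10 and separated at P20. The Gpnmb difference of 5.56 ± 1.09 (limma adjusted p = 0.159) was 3.99 without the unnumbered WT P10 library, the one at 235 CPM, and 6.92 without WT P10 replicate 1.

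Other members differed in which genotype moved. Ch25h, which makes 25-hydroxycholesterol, rose in Twi by 4.81 ± 0.69 (limma adjusted p = 0.00337) with a WT value of 0.05 ± 0.75, going from 0.437, 1.56 and 1.04 CPM in Twi P10 to 9.47, 25.1 and 46.9 CPM in Twi P20, while WT lay between 0.907 and 4.26 CPM at both ages. Its difference was 4.76 ± 1.01 (adjusted p = 0.159). Igf1, a growth factor, instead fell in WT by 3.29 ± 0.41 (limma adjusted p = 0.000871), with a difference of 2.47 ± 0.55 (adjusted p = 0.185) that was 1.57 without the unnumbered WT P10 library. Cst7, an inhibitor of cathepsins, had a difference of 1.76 ± 0.40 (adjusted p = 0.173), and neither genotype passed with age. Spp1, the secreted protein osteopontin, spread too widely in WT P10 (744 and 4010 CPM) and Twi P10 (128 to 1392 CPM) for its difference of 4.69 ± 1.39 to pass (adjusted p = 0.348), and the value was 2.52 without the unnumbered library.

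Of 68 lysosome genes, 50 had a difference above 0 (median 0.27), and 19 were higher and 2 lower at an unadjusted p under 0.05. In WT 17 fell and 2 rose, against 5.64% and 4.7% of all genes. The Twi minus WT median went from -0.17 at P10 to 0.10 at P20. Ctsz, a cathepsin, fell in WT by 0.83 ± 0.15 (limma adjusted p = 0.00472) while its Twi value was -0.01 ± 0.14. The sphingolipid and galactolipid genes, the pathway of Galc itself, had a median difference of 0.12 (0.03 without Twi P10 replicate 2, 0.20 without Twi P10 replicate 1). At an unadjusted p under 0.05, 3 of the 54 were higher, near the 5.3% of all genes. Galc and Gla, an alpha-galactosidase, are among these. In lipid uptake, efflux and storage, 30 of 45 were above 0 (median 0.48), with 11 higher and 1 lower, and 13 fell in WT. They include the cholesterol exporter Abcg1 (0.92 ± 0.28, limma adjusted p = 0.317), the cholesterol-esterifying enzyme Soat1 (0.99 ± 0.28, 0.270) and the lipoprotein lipase Lpl (1.04 ± 0.35, 0.365), all 3 with a WT fall that passed. The lipid median was 0.27 without the unnumbered WT P10 library. Those 11 lipid genes were 1 in batch 2 alone and 2 without that library, and the 19 lysosome genes were 5 and 8. Without Twi P10 replicate 2 they were 6 and 11, without WT P20 replicate 1 or Twi P20 replicate 2 the lipid genes were 7, and without Twi P20 replicate 3 they were 6.

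Psat1, an enzyme of serine synthesis, measured 117 and 138 CPM in WT P10, 91.9, 80.9 and 105 CPM in Twi P10, 26.8, 15.6 and 22.1 CPM in WT P20 and 52.3, 43.8 and 56.8 CPM in Twi P20. As with Ctsb, WT was above Twi at P10 and below it at P20 with no overlap. Psat1 fell in WT by 2.55 ± 0.23 (limma adjusted p = 0.000144), and the difference was 1.78 ± 0.31 (adjusted p = 0.0830). Phgdh, the first enzyme of that pathway, fell in WT by 0.93 ± 0.13 (limma adjusted p = 0.00117), with a difference of 0.67 ± 0.18 (adjusted p = 0.232). All 13 mitochondrially encoded genes had a difference above 0 (median 0.51), 4 of them at an unadjusted p under 0.05, including mt-Co1, a subunit of cytochrome c oxidase (0.69 ± 0.17, adjusted p = 0.185). In WT 5 of the 13 fell, against 5.64% of all genes, and in Twi 0 passed. Their median was 0.20 with 10 of 13 above 0 in batch 2 alone, 0.18 with 9 above 0 without the unnumbered WT P10 library, and 0.78 without WT P10 replicate 1. All 65 ribosomal protein genes also had a difference above 0 (median 0.61, 4 at an unadjusted p under 0.05), but that median was 0.03 in batch 2 alone, -0.02 without the unnumbered WT P10 library and 1.15 without WT P10 replicate 1.

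**Figure D4:**
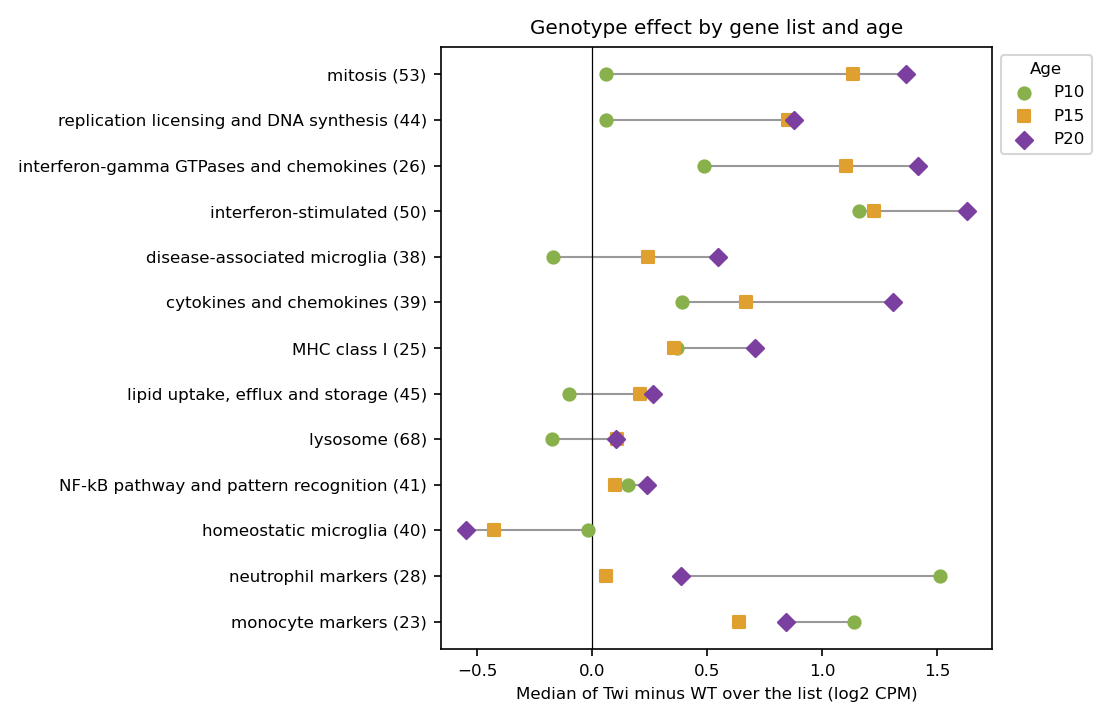
Median of Twi minus WT (x axis, log2 CPM) over the genes of 13 lists at P10 (circles), P15 (squares) and P20 (diamonds), with the number of genes tested in brackets; grey lines join P10 and P20. The mitosis median moves from 0.06 to 1.36, that of homeostatic microglia from -0.02 to -0.55, and that of neutrophil markers from 1.51 to 0.39.

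Interferon-stimulated genes differed from the groups above in that Twi was already higher at P10. Of 50 tested, the Twi minus WT median was 1.16 at P10, 1.23 at P15 and 1.63 at P20. At each of P10 and P20, 49 of the 50 were above 0. At P10 1 passed as higher and at P20 36, against 9 and 322 of all 13292 genes. For the difference of differences, 43 of the 50 were above 0 (median 0.54), with 10 higher and 0 lower at an unadjusted p under 0.05. With age, 8 rose and 0 fell in WT (median 0.57), and 21 rose and 0 fell in Twi (median 1.18). Of all genes 4.7% rose in WT and 1.53% in Twi. The 10 genes were 4 without the unnumbered WT P10 library and 22 without Twi P10 replicate 2, the library of batch 1 in its group. They were 5 without Twi P10 replicate 3 or Twi P20 replicate 2 and 6 without WT P20 replicate 1. The 21 rises in Twi were 3 without Twi P10 replicate 1 or 3 or Twi P20 replicate 2 and 9 without Twi P20 replicate 3, and the 8 rises in WT were 0 without WT P10 replicate 1.

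The interferon-stimulated response element (ISRE) is the promoter element through which type I interferon acts on its target genes. Its letters, GAAA followed by any 2 bases and GAAA, were found in 14 of 42 promoters of this group (33.3%; 35 of 50 genes matched), against 2.98% of all promoters and 2.7% of those of genes tested. A pair of promoters is shown from genes described next, in the same window and build. Capitals mark the ISRE letters or their reverse complement, and in Oas1a also TTCAAA and ATTGG, the reverse complements of the CHR and CCAAT letters.
Oas1a, chr5:120907526-120907645, minus strand: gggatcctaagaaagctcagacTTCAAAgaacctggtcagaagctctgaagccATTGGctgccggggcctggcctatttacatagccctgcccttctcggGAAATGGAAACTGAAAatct
Gbp2, chr3:142620543-142620662, plus strand: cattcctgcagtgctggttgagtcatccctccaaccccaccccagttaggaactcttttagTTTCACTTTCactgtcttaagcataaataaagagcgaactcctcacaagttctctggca

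Oas1a, an oligoadenylate synthetase that senses double-stranded RNA, measured 22.4 and 34.4 CPM in WT P10, 55.7, 102 and 46.7 CPM in Twi P10, 21.6, 23.5 and 19.2 CPM in WT P20 and 79.9, 118 and 170 CPM in Twi P20. Twi was above WT at both ages without overlap, and the Twi libraries of the 2 ages overlapped each other. The Oas1a difference was 1.30 ± 0.43 (limma adjusted p = 0.361), and its reads can be shared with close paralogs. Lgals3bp, a secreted glycoprotein, measured 269 and 348 CPM in WT P10, 392, 572 and 335 CPM in Twi P10, 271, 299 and 267 CPM in WT P20 and 812, 833 and 825 CPM in Twi P20. The 3 Twi P20 libraries were the highest of the 4 groups and lay close together. Lgals3bp rose in Twi by 1.03 ± 0.16 (limma adjusted p = 0.00627), and its difference was 1.13 ± 0.24 (adjusted p = 0.159).

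Genes known to answer interferon gamma, mostly GTPases and chemokines, were nearer between the genotypes at P10. Over 26 of them the Twi minus WT median was 0.49 at P10, 1.10 at P15 and 1.41 at P20. The median difference was 0.87, with 21 above 0, and 8 higher and 0 lower at an unadjusted p under 0.05. In Twi 6 rose and in WT 1 rose, against 1.53% and 4.7% of all genes. The 8 were 5 without the unnumbered WT P10 library, and the 6 were 1 or 2 without Twi P10 replicate 1 or 3 or Twi P20 replicate 2 or 3. Gbp2, a guanylate-binding protein that attacks vacuoles of microbes, measured 16.2 and 33.1 CPM in WT P10, 32.7, 49.4 and 21.1 CPM in Twi P10, 16.5, 16.3 and 14.2 CPM in WT P20 and 59.2, 105 and 72.5 CPM in Twi P20. The genotypes overlapped at P10 and separated at P20, Gbp2 rose in Twi by 1.42 ± 0.27 (limma adjusted p = 0.0147), and the difference was 1.89 ± 0.39 (adjusted p = 0.159). Its relative Gbp3 (1.05 ± 0.28) and the GTPase Ifi47 (1.62 ± 0.50) had limma adjusted p of 0.232 and 0.328. Cxcl9, a chemokine for T cells, rose in Twi by 2.84 ± 0.63 (limma adjusted p = 0.0306) from 0.898 to 3.29 CPM at P10 to 5.15 to 10.2 CPM at P20. Reads of the guanylate-binding proteins can be shared among paralogs.

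In MHC class I, 18 of 25 differences were above 0 (median 0.46), with 8 higher and 1 lower at an unadjusted p under 0.05. With age 8 rose in Twi and 3 in WT, against 1.53% and 4.7% of all genes. The median was 0.27 without the unnumbered WT P10 library. The 8 rises were 3 without Twi P10 replicate 1 and 5 or more without any other library. H2-K1, a classical class I chain, measured 154 and 163 CPM in WT P10, 223, 240 and 161 CPM in Twi P10, 171, 190 and 226 CPM in WT P20 and 411, 480 and 499 CPM in Twi P20. At P10 the genotypes overlapped, and at P20 they did not. H2-K1 rose in Twi by 1.15 ± 0.18 (limma adjusted p = 0.00497), and the difference was 0.86 ± 0.26 (adjusted p = 0.303). The class Ib genes H2-Q6 (2.37 ± 0.56) and H2-Q7 (2.01 ± 0.64) rose in Twi too, by 2.38 and 2.70, and their near-identical sequences make the split of reads between them uncertain. MHC class II had a median difference of 0.13, which lay between 0.06 without WT P20 replicate 2 and 0.45 without WT P20 replicate 3, and 1 of 14 was higher at an unadjusted p under 0.05, the activation marker Cd83 (1.07 ± 0.27, adjusted p = 0.210).

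Secreted signals were mixed in direction. Of 39 cytokines and chemokines, 27 differences were above 0 (median 0.44), 12 were higher and 2 lower at an unadjusted p under 0.05, and 1 passed, Ccl7. In Twi 12 rose and 1 fell, against 1.53% and 0.858% of all genes, and in WT 6 rose and 4 fell, against 4.7% and 5.64%. The 12 rises were 5 or 6 without Twi P10 replicate 1 or 3 or Twi P20 replicate 2 or 3, and the 6 WT rises were 1 without WT P10 replicate 1. The median difference was 0.78 without the unnumbered WT P10 library and 0.73 without WT P20 replicate 1. Il12b, the shared subunit of interleukins 12 and 23, was at or near 0 in WT (0 to 0.422 CPM over both ages) and measured 0, 2.58 and 0.261 CPM in Twi P10 and 42.2, 23.8 and 37.2 CPM in Twi P20. It rose in Twi by 6.75 ± 0.87 (limma adjusted p = 0.00222), and the difference was 5.30 ± 1.27 (adjusted p = 0.185) on a scale that compresses values near 0. Ccl3, a chemokine also induced when cells are dissociated, rose in Twi by 1.76 ± 0.32 (limma adjusted p = 0.0126), with a difference of 1.78 ± 0.46 (adjusted p = 0.227). The list of 28 early genes induced by dissociation had a median difference of 0.18 (0.04 to 0.39 without 1 library, WT P20 replicate 2 and WT P20 replicate 3 in turn). At an unadjusted p under 0.05, 5 of the 28 were higher and 1 lower, against 5.3% and 3.9% of all genes. The part of these genes in the results was not tested.

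Receptors and the pathway below them had medians near 0. Over 34 cytokine and chemokine receptors the median difference was 0.08, with 4 higher and 2 lower at an unadjusted p under 0.05. Over 41 genes of NF-kB signalling and pattern recognition it was -0.0035, with 20 above 0 and 6 higher and 3 lower. Of all genes 5.3% were higher and 3.9% lower. Without 1 library these medians lay between -0.02 and 0.14 and between -0.14 and 0.14. Within the second list Tlr2, the receptor for bacterial lipoproteins, measured 150 and 152 CPM in WT P10, 152, 193 and 151 CPM in Twi P10, 233, 206 and 188 CPM in WT P20 and 370, 409 and 456 CPM in Twi P20. It rose in both genotypes, by 0.51 ± 0.14 in WT (limma adjusted p = 0.0353) and 1.42 ± 0.13 in Twi (0.000277), and the difference was 0.91 ± 0.19 (adjusted p = 0.159). Relb, a subunit of the alternative NF-kB pathway, rose in Twi by 1.51 ± 0.35 (limma adjusted p = 0.0393), and the kinase Map3k8 by 0.66 ± 0.16 (0.0411). Tlr5, the flagellin receptor, lay on the other side with a difference of -1.52 ± 0.55 (adjusted p = 0.415). Among receptors, Il2rg, the common gamma chain, rose in Twi by 1.37 ± 0.22 (limma adjusted p = 0.00627), and Tgfbr1, the TGF-beta receptor kinase, rose in WT by 0.84 ± 0.18 (0.0118) with a Twi value of 0.07 ± 0.17.

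In the list of complement, Fc receptors and phagocytosis, 28 of 36 differences were above 0 (median 0.22). At an unadjusted p under 0.05, 7 were higher and 1 lower, against 5.3% and 3.9% of all genes. The median was 0.13 without the unnumbered WT P10 library and 0.35 without WT P10 replicate 1. C2, the protease of the classical pathway that is the counterpart of factor B, fell in WT by 1.61 ± 0.31 (limma adjusted p = 0.0057) and had a difference of 1.88 ± 0.41 (adjusted p = 0.159). Axl, a receptor for apoptotic cells, rose in Twi by 1.72 ± 0.23 (limma adjusted p = 0.00224), and its difference was 1.17 ± 0.33 (adjusted p = 0.261). C3ar1, the receptor for the complement fragment C3a, had values of -0.24 in WT and 0.45 in Twi that did not pass, and a difference of 0.69 ± 0.16 (adjusted p = 0.185).

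Homeostatic microglia genes, which mark the adult resting state, had the lowest median of the 25 function lists. Of 40 tested, 34 had a difference below 0 (median -0.48), and 1 was higher and 16 lower at an unadjusted p under 0.05, against 5.3% and 3.9% of all genes. The Twi minus WT median was -0.02 at P10, -0.43 at P15 and -0.55 at P20. In WT 7 rose and 2 fell between the ages, against 4.7% and 5.64% of all genes. In Twi 2 rose and 5 fell, against 1.53% and 0.858%. The 16 lower genes were 2 in batch 2 alone, 5 without the unnumbered WT P10 library, 10 without WT P20 replicate 1 or 2 and 8 without Twi P20 replicate 2 or 3, while 33 of 40 were below 0 in batch 2. The median was -0.32 without the unnumbered library.

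Selplg, the ligand of selectins, measured 3056 and 1753 CPM in WT P10, 2931, 2685 and 2434 CPM in Twi P10, 5927, 5112 and 5189 CPM in WT P20 and 3820, 2639 and 2782 CPM in Twi P20. The genotypes overlapped at P10, and every WT library was above every Twi library at P20. Selplg rose in WT by 1.21 ± 0.21 (limma adjusted p = 0.00305) against a Twi value of 0.16 ± 0.19, and its difference was -1.05 ± 0.27 (adjusted p = 0.225), or -0.56 without the unnumbered WT P10 library. Slc2a5, the fructose transporter, instead fell in Twi by 0.89 ± 0.19 (limma adjusted p = 0.0252) with a WT value of 0.19 ± 0.21, from 555 to 681 CPM in Twi P10 to 275 to 423 CPM in Twi P20. Abca9, an ABC transporter, was lower in every Twi than in every WT library at both ages, fell in Twi by 0.83 ± 0.12 (limma adjusted p = 0.00331) and had a difference of -0.66 ± 0.17 (adjusted p = 0.225). Gpr84, a receptor for fatty acids, was the 1 higher member: it rose in Twi by 0.87 ± 0.14 (limma adjusted p = 0.00729), with a difference of 0.82 ± 0.21 (adjusted p = 0.213).

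No gene passed for a lower difference. With predicted and unnamed genes left out, the 8 with the smallest p fall into groups of different form. In Bbs9 and Lrba the WT level rose and Twi did not pass with age (0.46 and -0.05). Bbs9, a subunit of the BBSome that moves cargo in cilia, measured 16.5 and 18.1 CPM in WT P10, 27.4, 29.1 and 24.7 CPM in Twi P10, 63.7, 74.9 and 67.8 CPM in WT P20 and 42.0, 35.3 and 32.2 CPM in Twi P20. Twi was above WT at P10 and below it at P20, with no overlap either time. It rose in WT by 2.00 ± 0.18 (limma adjusted p = 0.000144), and the difference was -1.54 ± 0.25 (adjusted p = 0.0634). Lrba, a protein of vesicle traffic, measured 10.8 and 11.8 CPM in WT P10, 13.8, 19.1 and 16.7 CPM in Twi P10, 38.7, 39.7 and 35.0 CPM in WT P20 and 15.8, 15 and 12.9 CPM in Twi P20. The order reversed here as well, with a WT rise of 1.80 ± 0.25 (limma adjusted p = 0.000923) and a difference of -1.84 ± 0.33 (adjusted p = 0.0830).

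In Bank1, Grm3 and Zfp551 Twi fell with age, and WT did not pass. Bank1, a scaffold protein of B cells that was also present here, measured 84.6 and 88.4 CPM in WT P10, 80.0, 103 and 75.0 CPM in Twi P10, 81.6, 78.0 and 67.3 CPM in WT P20 and 35.6, 15.6 and 26.9 CPM in Twi P20. The 3 Twi P20 libraries stood below all others, the fall in Twi was by 1.70 ± 0.24 (limma adjusted p = 0.00311), and the difference was -1.55 ± 0.35 (adjusted p = 0.166). Grm3, a metabotropic glutamate receptor that is also in the neuronal list, lay between 1.71 and 2.75 CPM in WT at both ages and between 1.08 and 3.67 CPM in Twi P10, and measured 0.167, 0 and 0.134 CPM in Twi P20. It fell in Twi by 3.38 ± 0.60 (limma adjusted p = 0.0105), and the difference was -3.92 ± 0.88 (adjusted p = 0.159). Zfp551, a zinc finger protein, fell in Twi by 1.68 ± 0.41 (limma adjusted p = 0.0473) from 1.71 to 2.11 CPM to 0.406 to 0.896 CPM, against a WT value of 1.27 ± 0.44 (adjusted p = 0.0896), with a difference of -2.95 ± 0.59 (adjusted p = 0.155).

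In F5, Hdc and Arhgef37 every Twi library was above every WT library at P10, and the genotypes overlapped at P20. F5, coagulation factor V, measured 1.72 and 4.56 CPM in WT P10, 14.1, 14.6 and 25.6 CPM in Twi P10, 20.8, 19.9 and 28.6 CPM in WT P20 and 24, 28.2 and 25.8 CPM in Twi P20. F5 rose in WT by 2.99 ± 0.37 (limma adjusted p = 0.000525), and the difference was -2.39 ± 0.50 (adjusted p = 0.159). That value was -1.63 without WT P10 replicate 1 and -3.26 without the unnumbered WT P10 library. Hdc, which makes histamine, measured 9.21 and 12 CPM in WT P10, 60.4, 25.9 and 44.6 CPM in Twi P10, 81.4, 113 and 161 CPM in WT P20 and 66.2, 97.5 and 150 CPM in Twi P20. It rose in WT by 3.36 ± 0.35 (limma adjusted p = 0.000212) and had a difference of -2.24 ± 0.46 (adjusted p = 0.159). Without the same 2 libraries in turn, the Hdc difference was -1.77 and -2.78. Arhgef37, named as a guanine nucleotide exchange factor, rose in WT by 3.51 ± 0.44 (limma adjusted p = 0.000553) from 0.726 and 0.986 CPM, with Twi P10 at 5.41 to 12.8 CPM. Its difference was -2.68 ± 0.59 (adjusted p = 0.159), or -2.33 and -3.08 without those libraries in turn.

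Neutrophil markers, a list that holds Hdc, were also higher in Twi at P10 and closer between genotypes at P20. Neutrophils carry CD45 and CD11b, so the sort can hold them. Of 28 markers, 27 had a difference below 0 (median -0.97), with 0 higher and 9 lower at an unadjusted p under 0.05. The Twi minus WT median was 1.51 at P10, 0.06 at P15 and 0.39 at P20. At P10 all 28 were above 0 and 0 passed, and at P20 24 were above 0 and 1 passed. In WT 24 rose with age, and in Twi 2 rose, against 4.7% and 1.53% of all genes. The summed level of the 28 was 2687 and 6649 CPM in the WT P10 libraries, 7919 to 12692 CPM in Twi P10, 13644 to 31465 CPM in WT P20 and 17544 to 36724 CPM in Twi P20, and none of the 28 was at 0 in any of these libraries. Every Twi P10 library was above both WT P10 libraries, and the genotypes overlapped at P20.

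The collagenase Mmp8, stored in neutrophil granules, measured 124 and 156 CPM in WT P10, 594, 294 and 571 CPM in Twi P10, 794, 659 and 1532 CPM in WT P20 and 748, 1000.2 and 1670 CPM in Twi P20. It rose in WT by 2.69 ± 0.39 (limma adjusted p = 0.00206), and the difference was -1.57 ± 0.53 (adjusted p = 0.385). Padi4, which citrullinates histones in neutrophils, had -2.16 ± 0.66 (adjusted p = 0.345), and the gelatinase Mmp9 -1.59 ± 0.50 (0.354). Without WT P10 replicate 1, the library with the lower sum, the median over the 28 was -0.21 and 24 WT rises became 4, and without the unnumbered library the median was -1.94. The 9 lower markers were 3 without WT P10 replicate 1 and 4 or 5 without WT P20 replicate 3, Twi P20 replicate 1 or Twi P20 replicate 2. For monocyte markers the difference of differences had no stable direction. Its median was -0.20, and it was -0.79 in batch 2 alone, 0.13 without WT P10 replicate 1 and 0.21 without Twi P20 replicate 1. Monocyte markers were nonetheless higher in Twi at each age, with a Twi minus WT median of 1.14 at P10 and 0.84 at P20. At P10 22 of 23 were above 0 and 0 passed, and at P20 23 of 23 were above 0 and 1 passed. Their sums were 724 and 1492 CPM in WT P10, 1667 to 2474 CPM in Twi P10, 2600 to 5573 CPM in WT P20 and 4097 to 8073 CPM in Twi P20. The defining monocyte genes Ly6c2 and Ccr2 were above 0 in every library. Ccr2 lay at 57.3 to 103 CPM in WT P10, 107 to 137 CPM in Twi P10, 133 to 188 CPM in WT P20 and 245 to 754 CPM in Twi P20. Its genotypes did not overlap at either age, while those of Ly6c2 overlapped at P20. The part of these cells in the differences given for F5, Hdc, Arhgef37 and the immune lists was not tested.

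**Figure D5:**
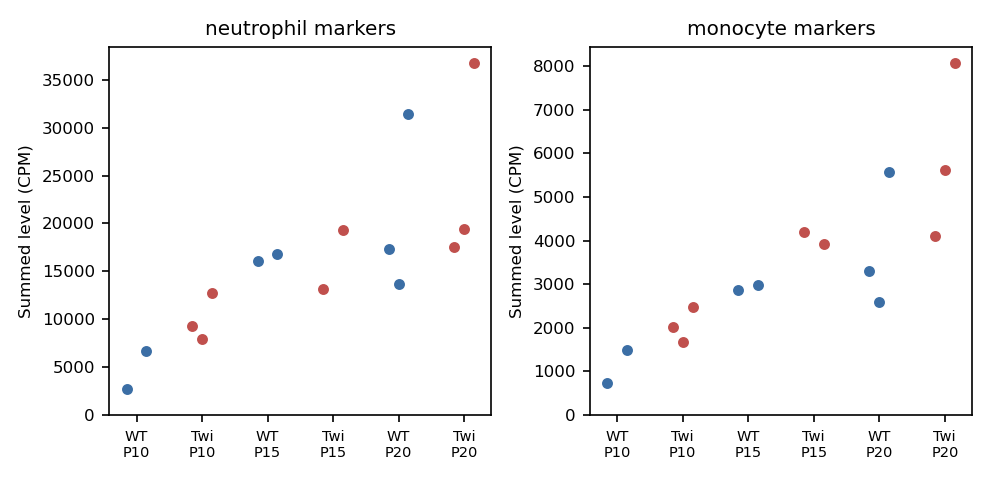
Summed level in CPM (y axis, starting at 0) of 28 neutrophil markers and 23 monocyte markers in each of the 15 libraries, by genotype and age; blue points are WT and red points Twi libraries. Both sums are lowest in WT P10, and the neutrophil sum of Twi P10 (7919 to 12692 CPM) lies above both WT P10 libraries.

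Markers of cells that the sort should leave behind were also measured. Of 19 neuronal markers tested, 16 had a difference above 0 (median 1.85), with 6 higher and 1 lower at an unadjusted p under 0.05. With age 9 fell in WT and 2 in Twi, against 5.64% and 0.858% of all genes. The 6 were 1 without WT P10 replicate 1, 3 without WT P20 replicate 2 and 2 without Twi P20 replicate 1, and the 9 were 0 without WT P10 replicate 1. Their sum was 159 and 220 CPM in WT P10, 105 to 118 CPM in Twi P10, 82.3 to 93.7 CPM in WT P20 and 70.8 to 83.1 CPM in Twi P20. WT P10 thus held the most, and Snap25, of the synaptic fusion machinery, stood at 15.6 and 6.73 CPM there against 2.43 to 6.51 CPM in all other P10 and P20 libraries. Oligodendrocyte markers summed to 2731 to 4045 CPM in the P10 and P20 libraries, and Trf, the transferrin gene, named after its values were seen, gave most of it, with group means of 2784 to 3459 CPM. The myelin gene Mbp lay between 32.7 and 87.5 CPM. Astrocyte markers summed to 261 to 2255 CPM, the highest in Twi P10 replicate 1, with much of it from the lipid carrier Apoe and the glutamate transporter Slc1a3, also named after their values were seen. Their median difference was 0.82 over 15 genes, and 0.34 without WT P10 replicate 1, with Gfap, the intermediate filament of astrocytes, at 14.6 and 9.38 CPM in WT P10, 5.66 to 11.8 CPM in Twi P10, 2.34 to 4.32 CPM in WT P20 and 5.39 to 11.6 CPM in Twi P20. Border-associated macrophages carry CD45 and CD11b, so the sort can hold them. Their markers had a median difference of 0.71 over 22 genes, which was 0.01 without the unnumbered WT P10 library and 1.27 without WT P10 replicate 1, with 9 falling in WT and 4 in Twi and sums of 1985 and 3672 CPM in WT P10 against 1087 to 1388 CPM in WT P20. Hdc is also known from mast cells and basophils, whose protease Prss34 lay at 0.151 and 0.156 CPM in WT P10, 0.0433 to 61.2 CPM in Twi P10, 0.0523 to 13.4 CPM in WT P20 and 30.4 to 255 CPM in Twi P20. The endothelial gene Cldn5 was at 0 in every P10 and P20 library, but the 30 endothelial and mural markers summed to 186 to 575 CPM there. The T cell gene Cd3e was at 0 in every P10 library and reached 0.232 CPM in WT P20 and 0.67 CPM in Twi P20. The 27 T and NK cell markers summed to 8.82 to 69.6 CPM in the P10 and P20 libraries. The part of these cells in the results above was not tested.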

How the data were processed

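The libraries are poly(A) RNA of CD45+ CD11b+ cells, made with a low-input kit and 16 to 19 PCR cycles without molecular identifiers. Per the labels, 29 to 42 M read pairs were sequenced per library and a mean of 70.24% mapped. Quantification used kallisto 0.46.0 and build GRCm39, per the submitters' processing notes. The main values are log2 CPM after TMM scaling, as the authors deposited them. A deposited TPM table (scaled for transcript length by the authors) served as an alternative. The total counts per library are not given in the files. The table's lowest value, -3.44, marks genes with no reads, and levels in CPM were obtained as 2 to the power of the value, minus 2 to the power of that lowest value, so that such genes are at 0.

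Of 29956 named genes, the 13292 that reached 1 CPM in 2 or more libraries were fitted in limma 3.58.1 (R 4.3.3) on the deposited log2 values, with 6 genotype-by-age groups and sequencing batch, trended and robust empirical Bayes (8 residual degrees of freedom) and Benjamini-Hochberg adjustment over all genes at 0.05. Fold changes are on this log2 scale, which understates changes of low genes. The procedure was also run on data simulated from the same fitted model with independent normal noise. Such data hold no outlying libraries and no values held at a floor, so the run cannot speak of these. The WT P10 column whose number no label of its group carries was used as an unnumbered WT P10 library, in batch 1 by elimination. The series text mentions other designs, and the sample labels were followed.

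Genes are named by this rule: Galc, the genes called, the genes with the smallest p up to 8 in each direction, and the 4 members of smallest p, or fewer, from each of 39 lists (25 of functions, 14 of cell types). Predicted and unnamed genes were left out before the genes called and those 8 were picked. Defining markers of cell types are given as a check of the sort. The members and lists were chosen with earlier results of these data known. Promoters come from RefSeq (GRCm38.p6) and were matched by symbol. Alternatives were 15 fits without 1 library and 13 other settings. Results of some genes are not reported here.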

Additional observations from a re-analysis of the deposited data

Results flagged for a closer look

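Ccl7 met the criterion of a Twi minus WT difference that itself differs between the ages: 3.15 ± 0.42 log2 units (SE; limma adjusted p = 0.0435), higher in 3 of 3 Twi P20 libraries than in any WT P20 library. Over all alternatives its value lay between 2.89 and 3.37 and its adjusted p between 0.0149 and 0.301, and 14 of 28 alternatives left it past 0.05. No group held the 4 or more libraries that a check for single outlying libraries needs.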

How the results depend on the processing

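No named gene's difference changed sign under any of the 28 alternatives that gave it a value. For the Ccl7 difference of effects, adjusted p was 0.232 with batch 2 alone, 0.0647 with the unnumbered WT P10 library put in batch 2, 0.0875 with empirical Bayes without trend and robust estimation, 0.076 with the Y-linked genes as covariate, and 0.0606 to 0.213 in 9 of the fits without 1 library.

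The number of genes called higher for the difference (1 as reported) was 2 with no batch term, 2 with only the 11 libraries of P10 and P20, 2 with log2(TPM + 1), 4 with no filter, 7 with a mean of at least 10 CPM and 13 with library quality weights. It was 0 in batch 2 alone, with the unnumbered library in batch 2 and with the Y-linked covariate. The number called lower (0 as reported, 518 at an unadjusted p under 0.05) was 1 with at least 10 CPM and 1 with quality weights, Bbs9 in both. Without 1 library at a time these ranged from 0 to 4 and from 0 to 1.

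Within WT, 625 rises and 750 falls became 110 and 88 in batch 2 alone, and 397 rises with plain empirical Bayes. Without 1 library they ranged from 118 to 662 and from 191 to 828, with 236 and 210 without the unnumbered WT P10 library. Within Twi, 204 rises and 114 falls became 122 and 39 in batch 2 alone and 80 and 42 with plain empirical Bayes, and the falls were 172 with a common median and 222 with quality weights. Without 1 library they ranged from 70 to 258 and from 25 to 140. Batch 2 alone and the fits without a library hold fewer samples. For the other settings the cause was not tested.

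With the replicate number as a block, leaving out the unnumbered library, 0 genes were called higher (Ccl7 adjusted p = 0.301) and WT had 162 rises and 156 falls. Whether the numbers pair the libraries is not settled by these values. Deviations of 12 same-numbered pairs correlated at -0.0174 to 0.227, 2 of them above 0.1, and those of other pairs at -0.155 to 0.130. Of 10 libraries, 7 correlated best with their own number. Genes under about 1 CPM, such as Grm3 in Twi P20, rest on few reads, and their fold changes depend on the floor.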

Other observations

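The 43 nuclear genes of oxidative phosphorylation had differences above 0 in 41 (median 0.39), with 0 higher or lower at an unadjusted p under 0.05 in limma. This direction rests on 1 library: in batch 2 alone 19 of 43 were above 0 (median -0.04), without the unnumbered WT P10 library 19 of 43 (median -0.09), and without WT P10 replicate 1 42 of 43 (median 0.64). The 34 genes of amino acid and oxidative stress responses had a median of 0.24 (0.10 without WT P20 replicate 2 or Twi P20 replicate 3, 0.38 without WT P10 replicate 1 or WT P20 replicate 3), with 7 higher and 0 lower (4 higher without the unnumbered WT P10 library), among them Hmox1, which degrades heme (0.89 ± 0.27, limma adjusted p = 0.329), and Shmt2, the mitochondrial serine enzyme (0.97 ± 0.36). Interferon ligands, receptors and nucleic acid sensors had a median of -0.06 over 19 genes (-0.14 to -0.03 without 1 library), with 0 higher and 0 lower, beside the median of 0.54 over 50 interferon-stimulated genes. Folr2, a folate receptor of border-associated macrophages, fell in both genotypes, by 4.41 in WT (limma adjusted p = 0.000525) and 2.47 in Twi (0.0211).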
